A study of Mus musculus with 12 samples.

Results

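Slow-fibre contractile genes encode the forms of the sarcomere proteins that slow-twitch skeletal muscle fibres use, several of which the heart uses too. The set described here holds 8 genes chosen by name: Myh7, Myh7b, Myl2, Myl3, Tnnt1, Tnni1, Tnnc1 and Tpm3. These are 8 of the 24421 entries of the deposited count table, and all 8 had enough counts to be tested. They were compared in the tibialis anterior, a hindlimb muscle, between 6 libraries of C57Bl/6 (WT) and 6 libraries of the strain given as mdx/mTR, all from males aged 4 months. The mdx mutation lies in Dmd, which encodes dystrophin, the protein that links the fibre's cytoskeleton to its membrane, and mTR stands for the mouse telomerase RNA gene (Terc). The strain carries both alterations in every cell, so their separate parts cannot be told apart, and the labels give no more of its genetic background than its name.

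A sarcomere shortens when myosin heavy chains pull on actin, with an essential and a regulatory light chain bound to each heavy chain neck. Calcium binds troponin C, which moves troponin I and, through troponin T, tropomyosin, and so opens the actin filament to myosin. Most of these subunits exist as slow and fast forms from separate genes, and a fibre's contraction speed follows largely from the set it makes. The mouse tibialis anterior is made almost wholly of fast fibres, so slow forms are scarce there in health.

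Of the 8 genes, 4 were higher in mdx/mTR (Tnni1, Myh7, Tnnc1 and Tnnt1), 2 were lower (Myl3 and Myh7b), and 2 did not pass the test (Myl2 and Tpm3), by edgeR's quasi-likelihood test at a Benjamini-Hochberg adjusted p below 0.05. This is 6 of 8 called, where 48.3% of the 13937 genes tested were called. The 4 higher genes compare with 25.0% of genes called higher, and the 2 lower genes with 23.4% called lower. All 6 mdx/mTR libraries lay above all 6 WT libraries for 3 genes (Tnnt1, Tnni1 and Tnnc1) and below them for 2 (Myh7b and Myl3), where 25.2% of genes had groups that did not overlap in one direction or the other. The median log2 fold change was 0.94 over the 8 genes and 0.014 over all genes tested. The set therefore did not move one way, although the summed levels of the 8 genes were alike, at 120 ± 45.7 CPM (counts put on a common library size) in WT and 117 ± 51.3 CPM over the 6 mdx/mTR libraries (SD, n = 6 each). The like sums hide opposite changes: mean Myl3 fell from 80.1 to 22.2 CPM while mean Tnni1 rose from 2.10 to 33.9 CPM. A single library in each group had by far the highest sum, WT 2 at 211 CPM and mdx/mTR 5 at 209.9 CPM. In the authors' deposited table, in which 50.1% of genes with an adjusted p were called, the same 6 genes passed and in the same directions.

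**Figure D1:**
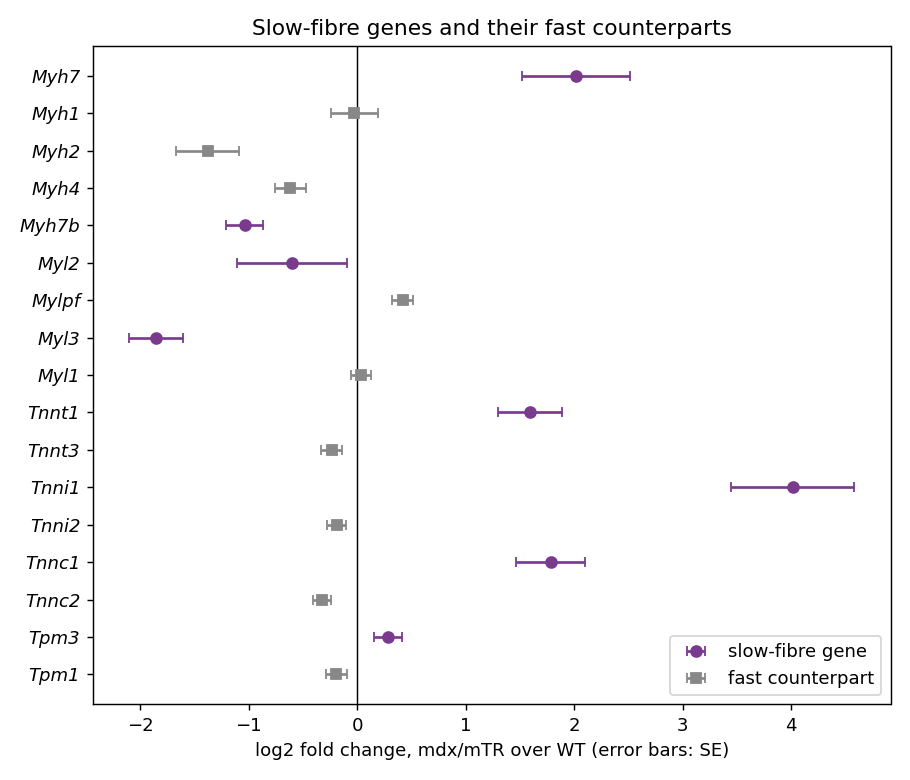
Log2 fold change between the strains (x axis, mdx/mTR over WT; bars are ± 1 standard error) for the 8 slow-fibre contractile genes and their fast counterparts (y axis), from 6 libraries per group. Tnni1 lies farthest to the right at 4.01 and Myl3 farthest to the left at -1.85, while the fast counterparts run from -1.38 (Myh2) to 0.42 (Mylpf).

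The WT libraries held 36903560 to 40981012 counts each and the mdx/mTR libraries 35136327 to 60330410, of which the 8 genes held 3225 to 7562 and 2672 to 9857. Dmd was at 228 to 244 CPM in WT and at 35.2 to 56.4 CPM in mdx/mTR. Terc had 0 to 2 counts in WT and 0 in every mdx/mTR library, too few to check the labels. Of 5 skeletal muscle markers 1 was higher and 1 lower (summed level 109100 to 130600 CPM in WT and 85820 to 117100 in mdx/mTR), and both groups held this tissue's defining transcripts at high levels. Of 6 heart muscle markers only Myh6 had enough counts to be tested, and the highest group mean of the other 5 was 0.277 CPM. All 5 macrophage markers were higher (summed 37.5 to 61.3 CPM in WT, 86.7 to 238 in mdx/mTR), and so were all 5 fibroblast markers (824 to 1522 CPM and 2099 to 4265). Over all genes tested, 25.0% were called higher and 23.4% lower. In whole muscle, a change in the number of cells of a type and a change in RNA per cell cannot be told apart. The labels number the libraries of a group but do not say that each came from a separate animal, so the p-values measure the spread between these samples, which may be technical in part.

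The promoter windows of 4 of the genes are shown because these genes span the range of the results: Tnni1 and Tnnc1 were higher in every mdx/mTR library, Myl3 was lower in every one, and Myh7 had the largest coefficient of variation in mdx/mTR after Tnni1. Each window runs from 250 bases before to 50 bases after a RefSeq start (GRCm38.p6), 5′ to 3′ on the gene's strand. The windows lie at chr1:135799171-135799470 (plus strand) for Tnni1, chr14:31208062-31208361 (plus) for Tnnc1, chr9:110763428-110763727 (plus) for Myl3 and chr14:54994577-54994876 (minus) for Myh7. Capitals mark CAGCTG (an E-box, the kind of element that myogenic factors such as MyoD bind), CATTCC or its reverse complement GGAATG (the MCAT element, bound by TEAD factors), and the CArG box, bound by serum response factor.
Tnni1: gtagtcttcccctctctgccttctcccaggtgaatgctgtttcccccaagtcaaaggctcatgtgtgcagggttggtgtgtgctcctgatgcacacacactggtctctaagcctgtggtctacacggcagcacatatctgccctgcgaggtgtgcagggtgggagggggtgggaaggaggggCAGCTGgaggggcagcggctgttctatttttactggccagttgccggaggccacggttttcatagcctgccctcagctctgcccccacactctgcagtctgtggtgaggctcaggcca
Tnnc1: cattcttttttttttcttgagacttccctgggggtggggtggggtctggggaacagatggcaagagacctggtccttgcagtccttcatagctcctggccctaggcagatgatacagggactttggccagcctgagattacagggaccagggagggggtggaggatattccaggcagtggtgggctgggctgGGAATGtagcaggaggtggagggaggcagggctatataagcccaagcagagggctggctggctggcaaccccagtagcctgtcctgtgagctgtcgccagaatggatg
Myl3: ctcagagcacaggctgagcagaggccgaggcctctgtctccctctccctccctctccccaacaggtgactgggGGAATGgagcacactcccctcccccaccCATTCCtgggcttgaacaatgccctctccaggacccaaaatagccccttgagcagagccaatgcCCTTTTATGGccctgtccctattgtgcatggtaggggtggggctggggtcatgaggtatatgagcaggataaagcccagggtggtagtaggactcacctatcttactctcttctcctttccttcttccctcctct
Myh7: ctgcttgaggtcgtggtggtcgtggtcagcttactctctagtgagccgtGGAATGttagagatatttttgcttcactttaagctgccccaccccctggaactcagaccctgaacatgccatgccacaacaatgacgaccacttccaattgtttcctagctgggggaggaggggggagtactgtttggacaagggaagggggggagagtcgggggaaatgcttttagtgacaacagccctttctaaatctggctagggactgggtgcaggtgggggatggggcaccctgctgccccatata

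Both strands of 12 such windows, 1 or 2 for each of the 8 genes, were searched, for these motifs, for the MEF2 site and for the core that NFAT factors bind. Within a window no 2 matches shared a base. The windows of a gene can overlap, so the same site can count in 2 windows, as for CAGCTG in Tnni1 and the NFAT core in Myh7. The 2 windows of Myl2 lie 8227 and 7762 bases from the nearest start in the GENCODE model of the gene, so the start of that model was not searched; the other windows begin their transcripts within 32 bases of a model start. CATTCC was in 3 of 12 windows (of Myh7, Myl3 and Tnnc1), beside 14.7% of the 32851 windows of the same length over the genome. In Tnnc1 it starts 58 bases before the transcript start and in Myh7 201 bases before it. CAGCTG was in 5 of 12 windows (of Myl2, Tnni1 and Tpm3), beside 16.3% of all windows, and in Tnni1 it lies 68 bases before the start. Myl3 alone held a CArG box, 85 bases before its start, beside 1.63% of all windows. No window of the 8 genes held the MEF2 site searched, which 3.19% of all windows hold. The NFAT core GGAAA was in 9 of 12 windows, of 6 genes, and in 61.3% of all windows. CATTCC was in windows of genes that rose (Myh7 and Tnnc1) and of Myl3, which fell, and CAGCTG in those of Tnni1, which rose, and of Myl2 and Tpm3, which did not pass the test.

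Myh7 (chromosome 14, 54970684 to 54994626, minus strand, mm10) encodes the slow myosin heavy chain, the motor of slow fibres and of the ventricle. In WT it was at 2.84 CPM at the lowest, 3.58 at the median and 4.50 at the highest. In mdx/mTR the same figures were 2.82, 11.3 and 29.9 CPM. The groups overlapped: 4 mdx/mTR libraries lay above every WT library, 1 lay within the WT range and 1 lay just below it. The mean was 3.54 ± 0.615 CPM in WT and 14.2 ± 11.5 CPM in the mutants (SD, n = 6 each), a log2 fold change of 2.02 ± 0.50 (SE; edgeR adjusted p 0.00445). Libraries mdx/mTR 1 and 2 carried most of this, at 29.9 and 26.7 CPM. Libraries 5 and 6 were at 10.73 and 11.96 CPM, and libraries 3 and 4 stayed at the WT level, at 2.82 and 3.39 CPM. Without libraries 1 and 2 the mdx/mTR mean was 7.23 ± 4.79 CPM and the log2 fold change 1.04 (edgeR adjusted p 0.0332). In limma-voom the gene was not called (log2 fold change 1.65, adjusted p 0.0642). Over all 23 alternatives the adjusted p ran from 0.000703 to 0.0642. The libraries of mdx/mTR also spread more widely than those of WT, with a coefficient of variation of 80.9% against 17.4%.

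**Figure D2:**
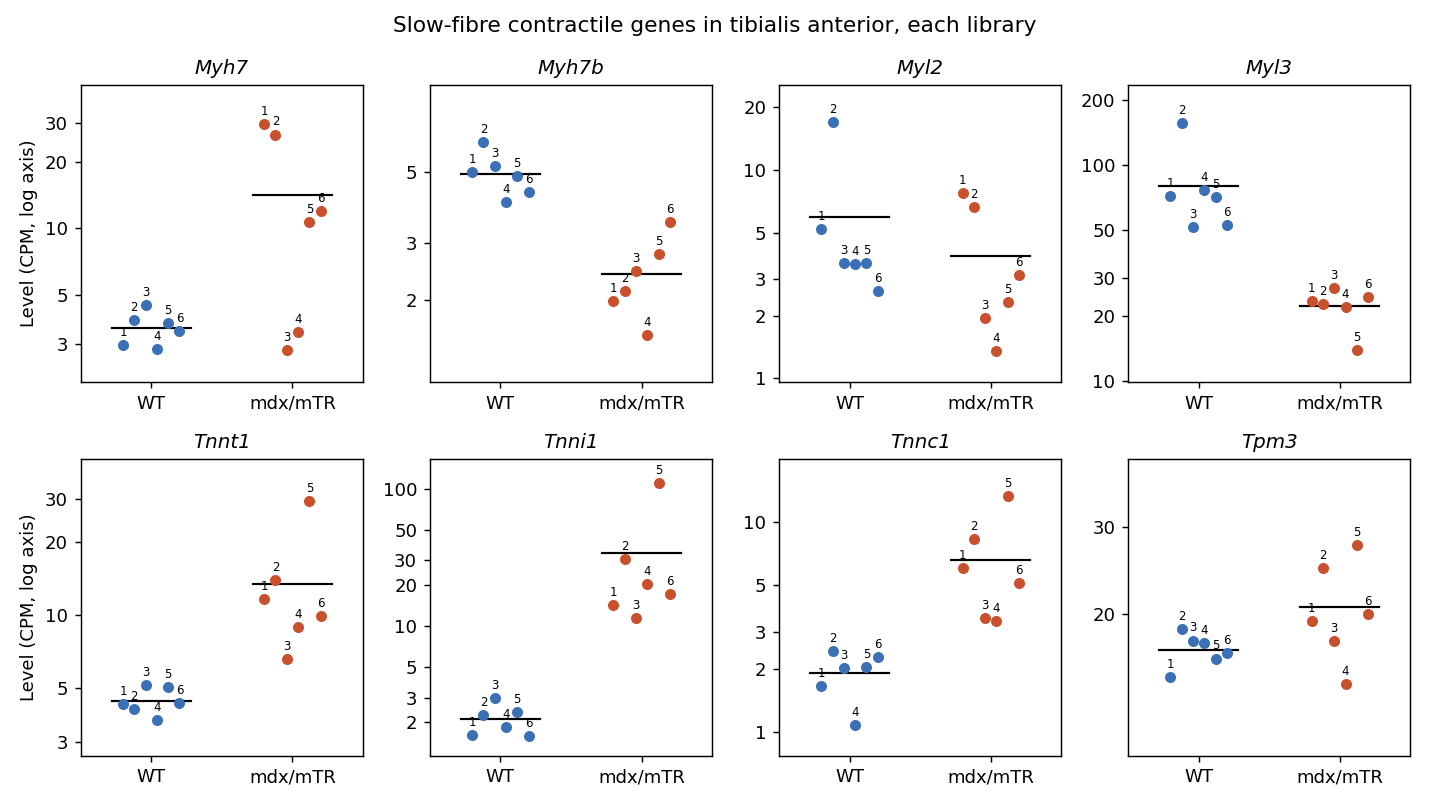
Level of each of the 8 genes (y axis, CPM on a log scale) in each of the 6 WT and 6 mdx/mTR libraries (x axis), with the replicate number beside each point and a black line at the group mean. Tnnt1, Tnni1 and Tnnc1 have every mdx/mTR point above every WT point, Myl3 and Myh7b the reverse, and Myh7 runs from 2.82 to 29.9 CPM in mdx/mTR.

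Myh7b (chromosome 2, 155611212 to 155634307, plus strand) encodes an ancient relative of the slow heavy chain, found in heart and slow muscle as RNA and best known as the host gene of a microRNA, Mir499. It was at 4.03, 4.91 and 6.195 CPM in WT (lowest, median and highest) and at 1.55, 2.30 and 3.49 CPM in mdx/mTR. Every mdx/mTR library lay below every WT library. The mean fell from 4.93 ± 0.755 to 2.40 ± 0.675 CPM (SD, n = 6 each), a log2 fold change of -1.04 ± 0.17 (edgeR adjusted p 0.00029). The heavy chains Myh7 and Myh7b thus moved in opposite directions. The entries of the microRNAs in their introns, Mir208b in Myh7 and Mir499 in Myh7b, held 0 counts in all 12 libraries, which allows up to 3 counts in each, or 0.0460 to 0.0837 CPM. That limit is on the counts alone. Whether the libraries could hold RNAs as short as a mature microRNA was not tested.

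Myh6, the heart's fast heavy chain and the chromosomal neighbour of Myh7, is no member of the set but shares sequence with it. It fell from 5.19 ± 0.557 to 1.95 ± 0.634 CPM (SD, n = 6 each), with every mdx/mTR library below every WT library and a log2 fold change of -1.42 ± 0.18 (edgeR adjusted p 3.7e-05). Of the 50-base stretches of the longest coding Myh7 transcript, 22.2% also occur in another gene, most often Myh6. Reads from those stretches could have been assigned to either gene or dropped, so the split between the 2 genes is uncertain in part. Their opposite changes are what the counts show as deposited. The antisense gene Mhrt, which covers 5.62% of the exon bases of Myh7, had 0 counts. How the counting treated strand is not given in the sources used here, so reads of Myh7 and of antisense transcripts at the locus cannot be told apart.

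Myl2 (chromosome 5, 122100951 to 122113472, plus strand) encodes the slow and ventricular regulatory light chain. It was at 2.63, 3.58 and 17.0 CPM in WT (lowest, median and highest) and at 1.35, 2.73 and 7.74 CPM in mdx/mTR. The groups overlapped, and the highest value of all was WT 2. The means were 5.91 ± 5.48 CPM in WT and 3.85 ± 2.66 CPM in the mutants (SD, n = 6 each), and the log2 fold change of -0.60 ± 0.51 did not pass the test (edgeR adjusted p 0.351). The sign rests on single libraries. Without WT 2 the WT mean was 3.70 ± 0.928 CPM and the log2 fold change 0.0705 (edgeR adjusted p 0.902). Without mdx/mTR 1 and 2, which held the highest Myl2 of their strain at 7.74 and 6.61 CPM, the log2 fold change was -1.42 (edgeR adjusted p 0.0403) and the mdx/mTR mean 2.19 ± 0.751 CPM. These are the lowest and the highest adjusted p of Myl2 over all 23 alternatives. The same libraries, 1 and 2, had the highest Myh7.

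Myl3 (chromosome 9, 110741861 to 110769798, plus strand) encodes the slow and ventricular essential light chain, and was by far the most abundant of the 8 genes in WT. It was at 51.4, 71.4 and 156.7 CPM in WT (lowest, median and highest) and at 13.9, 23.0 and 26.8 CPM in mdx/mTR. Every mdx/mTR library lay below every WT library. The mean fell from 80.1 ± 39.0 to 22.2 ± 4.41 CPM (SD, n = 6 each), a log2 fold change of -1.85 ± 0.25 (edgeR adjusted p 5.6e-05). WT 2 again stood highest. Without it the WT mean was 64.8 ± 11.7 CPM and the log2 fold change -1.55. Both light chains were therefore at their WT maximum in the same library. Myl3 was called lower, while Myl2 did not pass the test at a log2 fold change of -0.60. Myl6b, a slow essential light chain outside the set, was higher (log2 fold change 0.97, edgeR adjusted p 0.00322). Pth1r, transcribed from the opposite strand, shares 4.65% of the exon bases of Myl3 and was at 1.45 CPM in WT and 1.66 in mdx/mTR (edgeR adjusted p 0.573).

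Tnnt1 (chromosome 7, 4504570 to 4516382, minus strand) encodes slow troponin T, which ties the troponin complex to tropomyosin. It was at 3.69, 4.33 and 5.13 CPM in WT (lowest, median and highest) and at 6.59, 10.7 and 29.3 CPM in mdx/mTR. Every mdx/mTR library lay above every WT library. The mean rose from 4.44 ± 0.562 to 13.4 ± 8.17 CPM (SD, n = 6 each), a log2 fold change of 1.59 ± 0.29 (edgeR adjusted p 0.00065). Library mdx/mTR 5 was the highest, and without it the mdx/mTR mean was 10.2 ± 2.75 CPM.

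Tnni1 (chromosome 1, 135779434 to 135810989, plus strand) encodes slow troponin I, the inhibitory subunit, which is also the form made in the embryonic heart and in young fibres. It changed most of the 8 genes. It was at 1.59, 2.03 and 2.97 CPM in WT (lowest, median and highest) and at 11.3, 18.5 and 110.1 CPM in mdx/mTR. Even the lowest mdx/mTR library lay well above the highest WT library. The mean rose from 2.10 ± 0.531 to 33.9 ± 37.9 CPM (SD, n = 6 each), which is 16.2-fold, with a log2 fold change of 4.01 ± 0.57 (edgeR adjusted p 8.14e-05). Library mdx/mTR 5 alone, at 110.1 CPM, set much of that mean: without it the mean was 18.7 ± 7.42 CPM and the log2 fold change 3.15 (edgeR adjusted p 1.03e-06, within 2.87e-12 to 0.00328 over all 23 alternatives). In the authors' deposited table the log2 fold change of Tnni1 was 2.55 ± 0.353 (SE) and that of Myh7 1.31 ± 0.353. DESeq2 run here on the deposited counts gave larger values with larger errors, 4.003 ± 0.541 for Tnni1 and 2.002 ± 0.537 for Myh7. The cause of this difference was not tested, so the authors' sizes cannot be set directly beside those given here.

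Tnnc1 (chromosome 14, 31208312 to 31211729, plus strand) encodes the troponin C of slow fibres and heart, the calcium sensor of the filament. It was at 1.09, 2.03 and 2.43 CPM in WT (lowest, median and highest) and at 3.37, 5.58 and 13.25 CPM in mdx/mTR. Every mdx/mTR library lay above every WT library. The mean rose from 1.92 ± 0.482 to 6.59 ± 3.73 CPM (SD, n = 6 each), a log2 fold change of 1.78 ± 0.32 (edgeR adjusted p 0.000536). All 3 slow troponin subunits thus rose, and mdx/mTR 5 was the highest library for each of them. That library also had the highest summed level of the macrophage markers (238 CPM), of the fibroblast markers (4265 CPM) and of a list of 10 developmental and regeneration genes (1672 CPM, beside 502 to 1246 in the other mdx/mTR libraries). The part of these in the troponin values was not tested. Without mdx/mTR 5 all 3 subunits were still called higher.

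Tpm3 (chromosome 3, 90072649 to 90100902, plus strand) encodes the tropomyosin of slow fibres and, from the same gene, forms found in most non-muscle cells. It was at 14.8, 17.0 and 18.6 CPM in WT (lowest, median and highest) and at 14.4, 19.6 and 27.6 CPM in mdx/mTR. The groups overlapped, with 4 mdx/mTR libraries above the WT range and 1 below it. The means were 16.9 ± 1.31 and 20.6 ± 4.82 CPM (SD, n = 6 each), and the log2 fold change of 0.29 ± 0.13 did not pass the test (edgeR adjusted p 0.0818). With libraries scaled by their totals alone it did (log2 fold change 0.45, adjusted p 0.0244), and likewise without mdx/mTR 4 (0.37, adjusted p 0.0137), where all 23 alternatives ran from 0.0137 to 0.204. Its level is the least certain of the 8, since 62.4% of the 50-base stretches of its longest coding transcript occur in another gene, most often the copy Tpm3-rs7, which has no entry of its own among the counts used here. The counts do not separate the muscle form of Tpm3 from the others.

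Across the 6 mdx/mTR libraries the 8 genes did not share one order. Library 5 was highest for Tnnt1, Tnni1, Tnnc1 and Tpm3 and lowest for Myl3. Library 1 was highest for Myh7 and Myl2, library 3 for Myl3 and library 6 for Myh7b. Library 3 was lowest for Myh7, Tnnt1 and Tnni1, and library 4 for Myh7b, Myl2, Tnnc1 and Tpm3. The highest mdx/mTR library exceeded the lowest by 10.6-fold for Myh7 and 9.71-fold for Tnni1, but by 1.92-fold for Tpm3 and 1.93-fold for Myl3. In WT, library 2 was highest for 5 genes (Myh7b, Myl2, Myl3, Tnnc1 and Tpm3) and library 3 for the other 3. In mdx/mTR the slow troponins were thus highest in library 5 and the slow heavy chain in library 1, whereas in WT library 3 was highest for Myh7, Tnnt1 and Tnni1 alike.

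**Figure D3:**
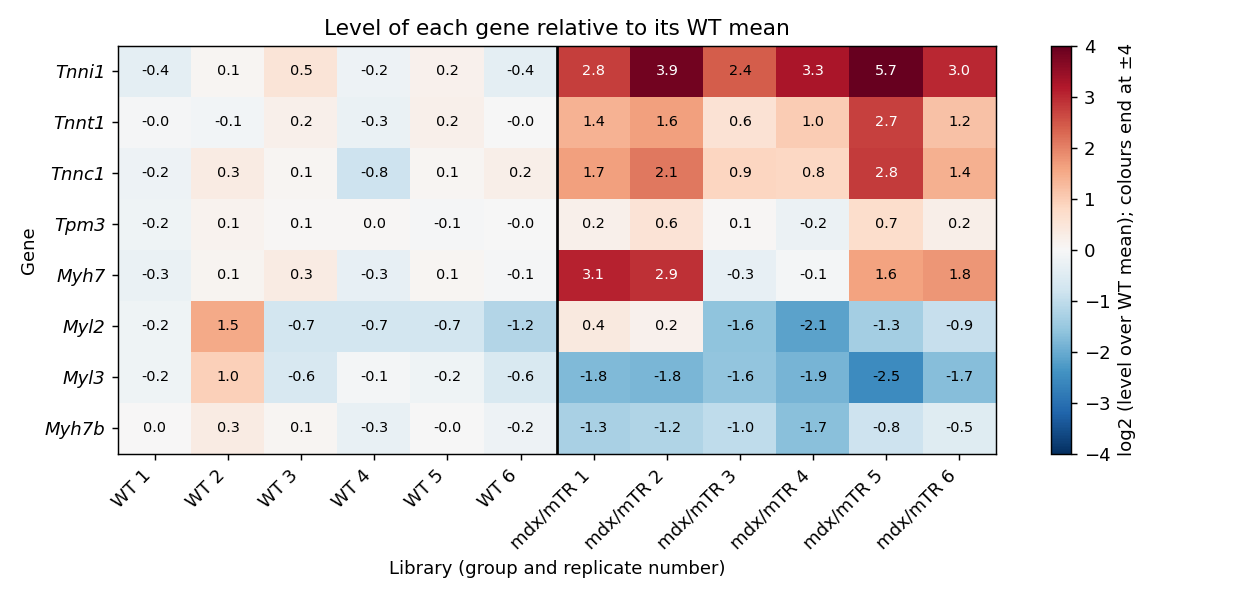
Log2 of each library's level over the WT mean for the 8 genes (y axis) in the 12 libraries (x axis), with colours that end at 4 above and 4 below. Library mdx/mTR 5 holds the highest Tnnt1, Tnni1 and Tnnc1, while Myh7 is highest in mdx/mTR 1 and 2.

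Set against the fast form of the same subunit, each slow form was a small part in both groups. Shares were formed from CPM per kilobase of the longest coding transcript, as the slow gene over the sum of slow and fast genes, and are given without a test. Some fast genes also share 50-base stretches with other genes: 26.7% of Myh1, 26.9% of Myh2, 18.9% of Myh4 and 23.4% of Myl1. Shares that involve these genes, Myh7 or Tpm3 are therefore uncertain in part. For troponin I, Tnni1 was 0.0176% ± 0.00435 of Tnni1 plus Tnni2 in WT and 0.359% ± 0.451 in the mutants (SD, n = 6 each), 20.4-fold more. Without mdx/mTR 5 the mdx/mTR share was 0.177% ± 0.0897 (n = 5), which is 10.1-fold. For troponin C, Tnnc1 was 0.0227% ± 0.00657 and 0.101% ± 0.0685 of Tnnc1 plus Tnnc2, and for troponin T, Tnnt1 was 0.0238% ± 0.00278 and 0.0894% ± 0.0673 of Tnnt1 plus Tnnt3. With mdx/mTR 5 left out, the mdx/mTR shares were 0.0755% ± 0.0329 for Tnnc1 and 0.0631% ± 0.0218 for Tnnt1 (n = 5). These are 3.331-fold and 2.655-fold the WT shares, in place of 4.445-fold and 3.762-fold. In these 3 pairs every mdx/mTR library exceeded every WT library.

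For the heavy chains, Myh7 was 0.00447% ± 0.000820 of Myh7, Myh1, Myh2 and Myh4 together in WT and 0.0256% ± 0.0201 in mdx/mTR, with 5 of 6 mdx/mTR libraries above the WT range. That is 5.73-fold, and 3.02-fold without mdx/mTR 1 and 2. The essential light chain went the other way: Myl3 was 1.71% ± 0.867 of Myl3 plus Myl1 in WT and 0.464% ± 0.0748 in mdx/mTR, where every library lay below every WT library. With WT 2 left out, the WT share of Myl3 was 1.36% ± 0.195 (n = 5). Its ratio of mdx/mTR to WT was then 0.34 in place of 0.271. For the regulatory light chain, Myl2 was 0.0681% ± 0.0581 of Myl2 plus Mylpf in WT and 0.0326% ± 0.0185 in mdx/mTR, and the groups overlapped. Without WT 2 the WT share was 0.0447% ± 0.00961 (n = 5), so the ratio of mdx/mTR to WT was 0.730 in place of 0.478. Tpm3 was 0.125% ± 0.0131 and 0.178% ± 0.0628 of Tpm3 plus Tpm1, also with overlap. Even at its highest, 1.26% in mdx/mTR 5, slow troponin I was a minor part of the troponin I transcripts.

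**Figure D4:**
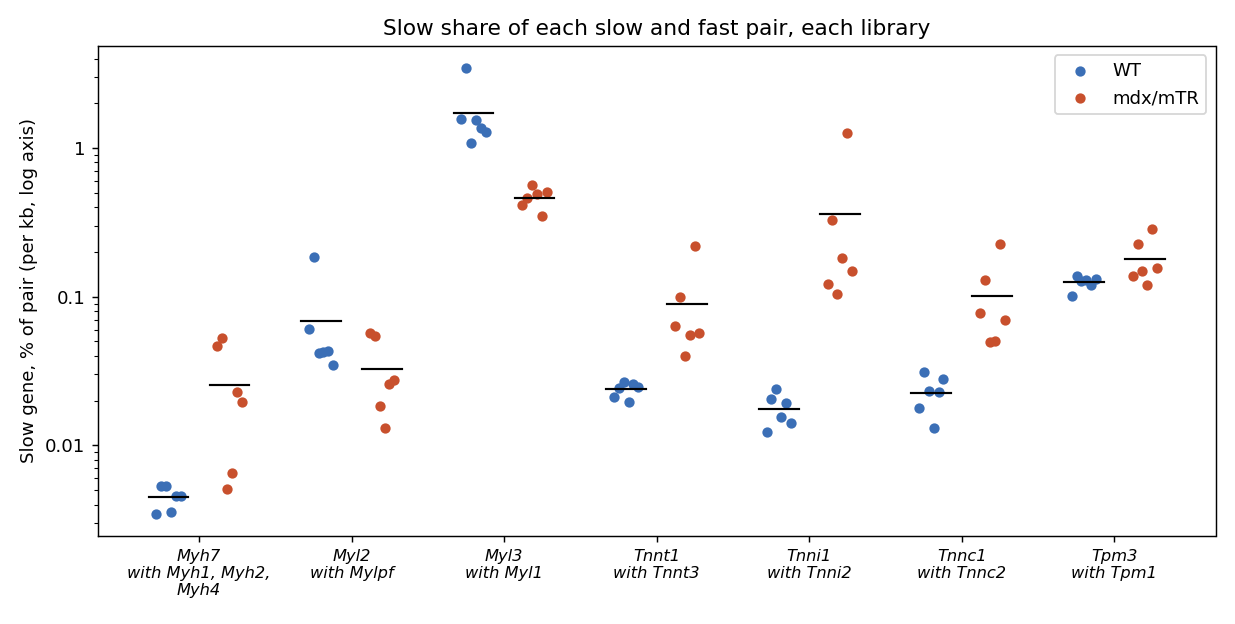
Share of the slow form in each slow and fast pair, in percent per kilobase on a log scale (y axis), for the 6 WT and 6 mdx/mTR libraries (x axis) of 7 pairs. The troponin shares of mdx/mTR lie above those of WT in every library, and the share of Myl3 averages 1.71% in WT and 0.464% in mdx/mTR.

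The order of the 8 genes per kilobase differed between the groups. In WT, Myl3 was at 85.5 ± 41.6 CPM per kilobase, followed by Tpm3 (7.56), Myl2 (6.65), Tnnt1 (4.19), Tnnc1 (2.66), Tnni1 (1.82), Myh7b (0.800) and Myh7 (0.569). Of the neighbours in that order, the WT ranges separated only Myl3 from Tpm3, Tnnt1 from Tnnc1 and Tnni1 from Myh7b. In mdx/mTR the order was Tnni1 (29.5 ± 33.0), Myl3 (23.7), Tnnt1 (12.6), Tpm3 (9.22), Tnnc1 (9.14), Myl2 (4.33), Myh7 (2.29) and Myh7b (0.389), and the ranges of all neighbours overlapped. The first place of Tnni1 rested on mdx/mTR 5: without it the mean was 16.2 ± 6.45 CPM per kilobase for Tnni1 and 25.5 ± 2.01 for Myl3 (n = 5), and Myl3 was above Tnni1 in 4 of 6 mdx/mTR libraries. The heavy chains Myh7 and Myh7b held the last places in both groups.

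Other genes of the slow fibre were taken from a list of 12. By edgeR's test 3 were higher, 4 were lower and 5 were not called, with a median log2 fold change of -0.096. The median was 0.055 with libraries scaled by their totals alone, a scaling that raised the median of all genes by 0.16. The higher genes were Sln, whose product sarcolipin restrains the calcium pump (3.24 on the log2 scale, adjusted p 5.87e-07), Atp2a2, the calcium pump of slow fibres and heart (1.17, adjusted p 2.2e-05), and Myl6b, a slow essential light chain (0.97). The lower ones were Fabp3, a fatty acid carrier of oxidative fibres (-1.06, adjusted p 0.000308), Ankrd2, a stretch-responsive protein (-0.70), Mb, the oxygen store myoglobin (-0.56), and Myoz2, a Z-disc protein (-0.54). Myl6b, Ankrd2, Mb, Myoz2, Tpm2 and Mybpc1 were named after their values were seen. Mb lost its call under 9 alternatives and Myoz2 with library totals alone. Without WT 2 and mdx/mTR 5 the counts were 3 higher and 3 lower. Over all genes 25.0% were called higher and 23.4% lower, so a split of this kind is near the background.

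Of 14 fast-fibre genes, 2 were higher, 4 lower and 8 not called, with a median log2 fold change of -0.19. Beside this, 48.3% of all genes tested were called, 25.0% higher and 23.4% lower, so the count is near the background. Among them were Myh2, the heavy chain of oxidative fast fibres (-1.38, adjusted p 0.00164), Myh4, that of the fastest fibres (-0.62, adjusted p 0.00267), and Mylpf, the fast regulatory light chain (0.42, adjusted p 0.00322). DESeq2 called 8 of the 14 lower, and with library totals alone 4 were higher and 3 lower. Myh2, which belongs to the fast genes but marks oxidative fibres, lay below WT in every mdx/mTR library.

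All 10 developmental and regeneration genes were higher, with a median log2 fold change of 2.96 (edgeR's test, and likewise under all 23 alternatives). Of all genes tested, 25.0% were called higher and 23.4% lower. The 3 with the smallest p were Chrng, the fetal acetylcholine receptor subunit (5.81), Tmem8c, the fusion protein myomaker (7.37, a fitted value for a gene at 0 to 0.167 CPM in WT), and Chrna1, the receptor's alpha subunit (1.71). Their summed level in mdx/mTR 1 to 6 was 1217, 1246, 502, 657, 1672 and 859 CPM, beside 231 to 505 in WT. It was lowest in library 3, where Myh7, Tnnt1 and Tnni1 were lowest too, and its part in their values was not tested. Of 5 satellite cell markers 2 were higher and 1 lower (summed 46.5 to 64.2 CPM in WT and 53.0 to 83.6 in mdx/mTR).

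Among 22 regulators of fibre type, 1 was higher, 9 were lower and 12 were not called, with a median log2 fold change of -0.084. For all genes tested the shares were 25.0% higher and 23.4% lower, or 48.3% called. Among those with the smallest p were Nfatc3 (-0.32, adjusted p 0.00013) and Nfatc2 (0.57, adjusted p 0.000444), which carry calcineurin signals to the nucleus. With library totals alone 6 were higher and 4 lower. Of the remaining markers, 1 of 5 smooth muscle genes was higher and 2 lower (summed 178 to 257 CPM in WT and 192 to 232 in mdx/mTR), and 3 of 5 endothelial genes were lower (434 to 574 and 342 to 444 CPM).

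The genes whose levels followed Myh7 most closely from library to library, within groups, were Sypl2, a protein of the fibre's membrane triads, Itgb1bp2, the muscle integrin partner melusin, and Itm2a. Likeness was the correlation of deviations from the group mean of log2(CPM + 0.5) over 12 libraries, and the 3 genes were the highest of 9504 compared, so no p is given. For Sypl2, Pearson's r was 0.888 and Spearman's rho 0.888 (r 0.811 without the 2 libraries farthest from the median). For Itgb1bp2 they were 0.883 and 0.895 (0.857), and for Itm2a 0.880 and 0.741 (0.837). For the other genes the closest were Nhej1 for Myh7b (r 0.855), Mdp1 for Myl2 (0.875), Txnip for Myl3 (0.948), Mydgf for Tnnt1 (0.944, but 0.643 without the 2 farthest libraries), Pmepa1 for Tnni1 (0.958), Ifi27 for Tnnc1 (0.945) and Ecscr for Tpm3 (0.940). Among the 8 genes themselves, Tnnt1 followed Tnni1 (r 0.932, rho 0.748) and Tnnc1 (r 0.897, rho 0.846) over the 12 libraries, but r was 0.614 and 0.793 without mdx/mTR 3 and 5, the 2 farthest. For Tnni1 with Tnnc1, r was 0.792 and rho 0.629, but r was 0.392 without the same libraries. For Myh7, r was 0.222 with Tnni1 (rho 0.259), 0.471 with Tnnt1 (rho 0.51) and 0.597 with Tnnc1 (rho 0.545). Without mdx/mTR 3 and 4, the farthest for Myh7, these r were -0.165, 0.015 and 0.203. With Myl2 and Tpm3, the r of Myh7 was 0.658 and 0.587. The libraries share their depth and scaling across genes, and these values are a description.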

How the data were processed

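RNA of the tibialis anterior was sequenced in 12 libraries, 6 WT and 6 mdx/mTR. The submitters' processing notes name FastQC, STAR, DESeq2 and the mm10 build, with no versions; the counter, annotation and strand setting are not given in the sources used here. The authors deposited whole-number counts per gene symbol (24421 entries, 5131 of them 0 throughout), with 0 per-sample columns left unmatched. The authors' deposited table holds a mean signal, a log2 fold change with its error, a test score and p-values, per the file headers.

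Counts were tested with edgeR 4.0.16 in R 4.3.3 (filterByExpr, TMM scaling, quasi-likelihood test, group as the only term) and adjusted by Benjamini-Hochberg over 13937 genes, which hold 99.97% of counts, at 0.05. The error of a log2 fold change is its size over the square root of F, and CPM use TMM-scaled totals. Tables were handled with pandas 2.3.3 and plots made with matplotlib 3.10.9 in Python 3.11.15 (the language of the plots). A count of 0 allows up to 3 counts (95% limit), which covers counting error only. Alternatives were other filters and scalings, DESeq2 1.42.0, limma-voom (limma 3.58.1), a replicate block, a stricter threshold and each library left out; leaving out WT 2 with mdx/mTR 5, or mdx/mTR 1 and 2, was chosen after seeing the data. On simulated counts with 200 genes changed by fixed amounts among 13814, edgeR recovered 94.5% with 11 false calls. DESeq2 recovered 96.5% with 31 false calls. The real comparison called 6736 genes, far more than were changed in the simulation, so these rates need not carry over to it. Replicate pairs differed beyond sampling noise (chi-square per degree of freedom at least 9.29).

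Members, gene lists and tests were chosen with earlier results of these data known. The rule named all 8 genes, Myh6, the fast counterparts, the 3 smallest p-values of each list, the 3 genes most like Myh7 and the 1 most like each other member, among genes with a mean of at least 5 CPM. A gene that the rule names is not reported here. Gene positions and 50-base sharing came from GENCODE M21 (mm10), and promoter windows from RefSeq (GRCm38.p6).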

Additional observations from a re-analysis of the deposited data

Results flagged for a closer look

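In 9 of the 30 groups of 6 values examined (16 of gene levels, 14 of slow shares), the highest or lowest library lay farther from its nearest neighbour than Dixon's 95% limit for 6 samples. Chance gives about 1.5 in 30, and gene levels and shares of the same gene are not independent. The 9 fell in 2 libraries. In WT 2, Myl2 was at 17.0 CPM while the other WT libraries were at 2.63 to 5.19, and Myl3 was at 156.7 CPM with the others at 51.4 to 76.6. The shares followed, with Myl2 at 0.185% of its pair (others 0.0350% to 0.0608%) and Myl3 at 3.44% (others 1.09% to 1.57%).

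In mdx/mTR 5, Tnni1 was at 110.1 CPM with the other mdx/mTR libraries at 11.3 to 30.6, and Tnnt1 at 29.3 CPM with the others at 6.59 to 13.9. Myl3 was low in the same library, at 13.9 CPM with the others at 22 to 26.8. Its slow shares were 1.26% for Tnni1 (others 0.104% to 0.329%) and 0.221% for Tnnt1 (others 0.0401% to 0.0988%). The slow troponins were thus at their highest in the mdx/mTR library in which Myl3 was at its lowest.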

How the results depend on the processing

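Tnni1, Tnnt1, Tnnc1, Myl3 and Myh7b kept their direction and call in all 23 alternatives, and 5 to 7 of the 8 genes were called. Myh7 lost its call only in limma-voom (log2 fold change 1.65). Myl2 turned positive without WT 2 (0.0705) and without WT 2 and mdx/mTR 5 (0.18), and was called lower without mdx/mTR 1 and 2 (-1.42). With 1 library left out its range was -0.92 to 0.0705. Tpm3 was called under scaling by totals (0.45) and without mdx/mTR 4 (0.37), within a left-out range of 0.18 to 0.37. Library totals alone gave 5590 genes higher and 1560 lower (78.2% of calls higher, against 51.6%), of which 5039 calls were shared with the 6736 of the TMM scaling. With 1 library left out 6125 to 6816 genes were called. The cause of these changes was not tested.

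Whether the replicate numbers pair the samples is not given by the labels, and these values do not settle it. Same-numbered libraries correlated at -0.16 to 0.35, 2 of 6 above 0.1, and 4 of 12 libraries correlated best with their own number. With a replicate block 6420 genes were called (3308 higher, 3112 lower), and no call of the 8 genes changed (Myh7 1.59, Tpm3 0.26). Low counts limit Tnnc1 and Tnni1 in WT, where single libraries held 41 to 107 counts. Single libraries of other genes were in that range too. Examples are Myl2 at 66 and Myh7b at 76 in mdx/mTR 4, and Myh7 at 103 in mdx/mTR 3.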
